A study of Mus musculus with 12 samples.

Results

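Transcripts of 122 solute carrier genes were followed in NIH-3T3 cells, an established mouse line of fibroblast cells with the genotype WT. They were the genes whose symbol begins with Slc, a family number and the letter a, and whose read count averaged 100 or more over all libraries, without Slc2a1 and Slc7a11. The genes were thus selected on their mean count, which is a description of them and no result. Of 267 genes with such a symbol, 143 fell under the minimum and 2 were left out by name. The table held 17419 genes, of which 9065 reached the same minimum. The symbols also took in 3 genes whose products are not carriers, Slc4a1ap, Slc7a6os and Slc9a3r1. The mitochondrial carriers, family Slc25a, made up 29 of the genes, and the other 93 are called the other members. Cells were given 800 µM of 4-thiouridine (4sU) for 15, 30, 60, 90 or 120 min, or none (no4sU), and there were 2 libraries, replicates A and B, in each of 6 groups. The title of the series gives its question as how the duration of labelling biases the quantification of RNA.

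Solute carriers are membrane proteins that move small molecules such as amino acids, sugars, metals and nucleosides across the plasma membrane and the membranes of organelles. Members of Slc25a sit mainly in the inner mitochondrial membrane, where they exchange ADP for ATP, import phosphate and shuttle metabolites and cofactors. Cells adjust many plasma membrane carriers to the supply of nutrients, and some of their mRNAs are short-lived. RNA made while 4sU is present takes it up in place of some of its uridine. After treatment with iodoacetamide these positions are sequenced as C, and such changes give an estimate of the NTR, the new-to-total ratio, which is the percentage of a transcript made since 4sU was added.

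The 12 libraries held 9917026 to 13739380 reads, of which the 122 genes took 1.12% to 1.17%. Their mean counts ran from 104 to 9569 with a median of 531. Just inside the minimum were Slc9a3r1 with a mean count of 104, Slc25a20 with 110 and Slc4a3 with 120.3, and just outside were Slc2a8 with 87.7, Slc40a1 with 85.9 and Slc22a5 with 83.9. All 8 fibroblast markers examined were present. Epithelial markers, of which only 2 of 4 had counts listed, summed to at most 0.582 CPM, a read level scaled to the size of the library. Leukocyte, endothelial and adipocyte markers summed to at most 6.88, 1.70 and 6.83 CPM. The summed fibroblast markers had a group mean of 15858 CPM in no4sU and of 19133 CPM at 120 min, and the part of this in the results below was not tested. Nothing in the labels says that replicates were separate cultures, so p-values measure only the spread between these libraries, which may be technical. The SD over members of the log2 difference between replicates was 0.17 in no4sU and 0.10 to 0.13 in the labelled groups (log2 of CPM plus 1), so the counts of members that differ from no4sU are given with and without each of its libraries. In bulk RNA, fewer cells of a kind and less RNA per cell cannot be told apart.

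The NTR of the mitochondrial carriers was spread more widely than that of the other members, while the medians of both classes stayed close. At 120 min the middle 50% of Slc25a genes lay between 17% and 56.6%, against 26.1% to 45% for the other members and 20.5% to 60.3% for all 9065 genes. The median NTR of Slc25a was 5.93% ± 0.332 (SD, n = 2 libraries) at 30 min, 16.6% ± 1.51 at 60 min and 38.1% ± 3.56 at 120 min. That of the other members was 4.87% ± 0.594, 14.8% ± 0.863 and 35.3% ± 0.233 at the same times. All 9065 genes had medians of 5.21% ± 0.120, 15.5% ± 0.410 and 35.4% ± 0.523. The difference, other minus mitochondrial, was -1.06 percentage points ± 0.926 at 30 min, -1.79 ± 2.38 at 60 min and -2.78 ± 3.32 at 120 min, so at 60 and 120 min it was smaller than its spread between libraries. Genes of a library are not replicates, and no test was made of this difference.

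**Figure D1:**
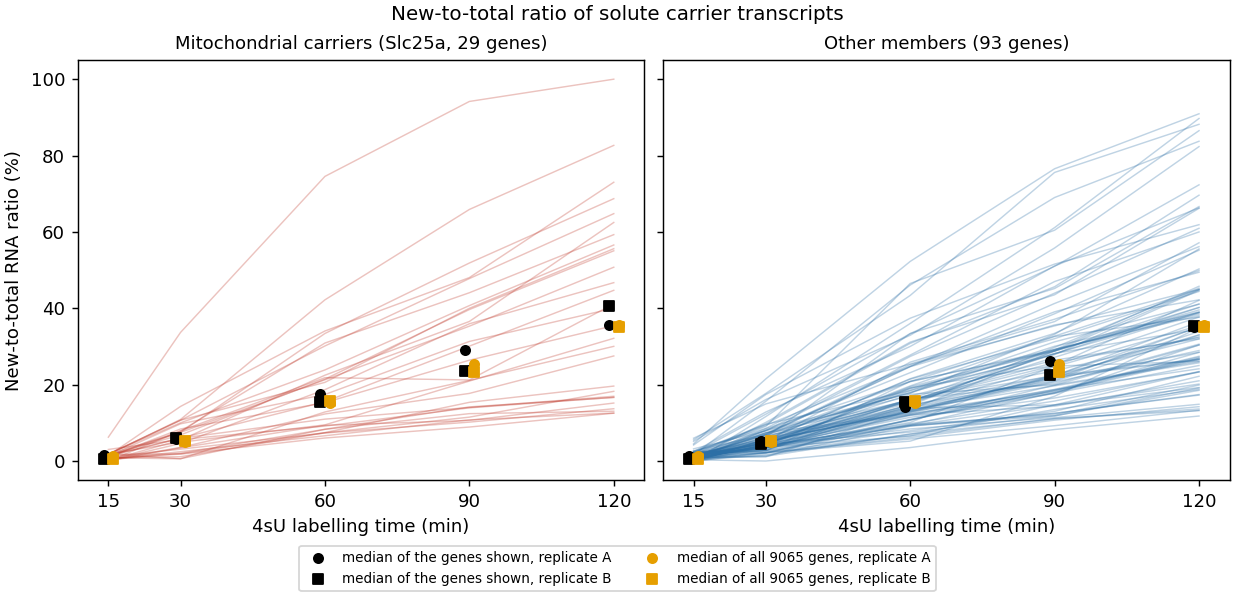
NTR (%) against labelling time (min) for each of the 29 mitochondrial carriers (left) and the 93 other members (right), as lines through the mean of 2 libraries. Points are the medians of each library, of the genes shown in black and of all 9065 genes in orange. The lines on the left fan out from 12.6% to 100.0% at 120 min, and the medians of both classes lie near that of all genes.

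The order of the classes turned with read level. Of those read at least 500 times on average, the 15 mitochondrial carriers had a median NTR of 18.4% ± 2.63 at 120 min and the 49 other members 32.6% ± 1.97. Of those with a mean count under 500, the 14 mitochondrial carriers had 49.7% ± 2.58 and the 44 other members 37.5% ± 0.187. The well-read Slc25a genes were therefore mostly slow, and 5 of the 15 stood above the median of all members at 120 min, against 11 of the 14 under 500. Restricted to a mean count of at least 500, the difference of medians was 0.755 points at 30 min, 3.50 at 60 min and 14.3 at 120 min, with the other members higher. Across the 29 mitochondrial carriers the Spearman rho of the NTR at 60 min with the mean count was -0.41, and across the 93 other members it was -0.01. Over the 8934 of all genes that had an annotated 3′UTR it was -0.26, so a fall with read level is not particular to Slc25a. Each rho is a description over genes of the same libraries, and all genes were not split at a mean count of 500.

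Among the abundant mitochondrial carriers turnover was slow. Slc25a5 and Slc25a4, which exchange ADP for ATP, had the highest levels per length of all members, 606 and 316 RPKM (CPM per kilobase of gene length). Slc25a3, the phosphate carrier, followed with 208 on that scale and had the most reads of any member. The NTR of Slc25a5 was 7.37% and 7.39% in the 60 min libraries, rising to 13.8% and 13.7% in the 120 min libraries. For Slc25a4 it was 8.67% and 9.72%, then 16.3% and 17.1%, and for Slc25a3 10.3% and 11.7%, then 16.5% and 17.5%. Slc25a1, the citrate carrier, had 7.02% and 6.30% at 60 min, and Slc25a39, which carries glutathione, 6.17% and 5.97%. Each of these genes lay under the median of all members in both libraries at 60 min and in both at 120 min. Counts of Slc25a5 were not whole in 12 of 12 libraries, as can arise where reads are divided between near-identical copies, so the values of Slc25a4 and Slc25a5 are uncertain.

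The fast end of the same family held a calcium-sensitive carrier and both mitoferrins. Slc25a25, a calcium-regulated ATP-magnesium/phosphate carrier, had the highest NTR of all members, starting from 7.36% and 5.21% after 15 min. The 30 min libraries had 30.2% and 37.2%, those of 60 min 72.4% and 76.7%, and those of 90 min 93.8% and 94.5%. At 120 min its NTR was listed at 100% in both libraries, with 90% intervals of 91.4% to 99.7% and 94.0% to 99.9%. Taken with a constant level, the 60 min values give an apparent half-life of 30.4 min ± 2.65 (SD, n = 2). Apparent half-lives here depended on the labelling time, which the SD does not cover. Their median over all members was 399 min at 30 min of labelling, 252 min at 60 min and 190 min at 120 min. Half-lives of single genes given here and below are therefore those at 60 min only. The mitoferrins, which import iron for haem and iron-sulfur clusters, were Slc25a28 with 41.1% and 43.3% and Slc25a37 with 29.4% and 31% at 60 min. Slc25a25 overlaps Naif1, with a mean count of 94.4, on the opposite strand. Slc25a32, linked to folate and flavin transport, had 32.0% and 36.1%.

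Outside the mitochondria, carriers of amino acids, zinc, nucleosides and sugars led the order of NTR at 60 min. Slc38a2, a sodium-coupled carrier of small neutral amino acids, had 51.6% and 53.0%, an apparent half-life of 56.2 min ± 1.51. That half-life takes the level as constant, but counts of Slc38a2 had a log2 fold change of -0.64 at 120 against 15 min. Its SD covers only the spread between the 2 libraries and not the change with labelling time. Slc29a2, an equilibrative nucleoside carrier, had 50.9% and 42.1%, and Slc3a2, the heavy chain that brings several amino acid carriers to the membrane, 46.7% and 45.5%. For Slc30a1, the zinc exporter of the plasma membrane, it was 45.5% and 41.3%. Slc2a10, a glucose carrier family member with few reads, had 42.7% and 29.4%. Slc7a6os, which is not a carrier, had 34.1% and 40.8%. Slc25a25 stood above Slc38a2, and Slc38a2 above Slc29a2, in both libraries, whereas the libraries of Slc29a2 overlapped those of Slc3a2 and the libraries of Slc2a10 those of Slc7a6os.

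Slc3a2 and its partner differed. The light chain Slc7a5, which joins Slc3a2 to import large neutral amino acids, had an NTR of 12.3% and 12.9% in the 60 min libraries and of 27.3% and 29.8% in those of 120 min, where Slc3a2 had 82.4% and 85.1%. The apparent half-lives at 60 min were 310 min ± 11.7 for Slc7a5 and 67.3 min ± 1.59 for Slc3a2. They take levels as constant, while counts of Slc3a2 had a log2 fold change of -0.41 at 120 against 15 min. The 2 genes had similar levels per length, 86.6 and 96.1 RPKM. The difference in NTR was larger than the spread between replicates at each time from 30 min on, and Slc7a5 overlaps a gene on the opposite strand, so reads of that gene could be among its counts if counting took no account of strand.

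At the slow end stood Slc35a1, the Golgi carrier of CMP-sialic acid, with an NTR of 3.54% and 3.59% at 60 min. These values give an apparent half-life of 1146 min ± 11.6. It would be shorter at 120 min, where no member had an NTR under 11.8% (mean of 2 libraries). After Slc35a1 came Slc4a3, an anion exchanger with few reads, Slc38a4, an amino acid carrier, and Slc25a39. Slc38a10 had 7.41% and 4.96%, and Slc39a11, a zinc carrier that overlaps Cog1 on the opposite strand, 6.32% and 6.81%. Slc25a1 and Slc50a1, a sugar carrier, completed the lowest 8. The NTR of Slc4a3 reached 29.5% and 40.4% at 120 min, which left it near the median of all members at that time.

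Over all members, the authors' 90% interval lay above the median of the members in both libraries for 37 genes at 60 min and below it for 33, and 52 were not separated from it. At 120 min 41 were above, 46 below and 35 not separated. At 15 min 20 were above and none below. The medians of the members there were 1.47% and 0.62%, under the median widths of the interval of 2.97 and 1.85 percentage points. An interval could therefore hardly lie below them, and no reading is made of that count. The rank of members in replicate A against B gave a Spearman rho of 0.31 at 15 min and 0.96 at 120 min, as a description over genes. The apparent half-life was shorter at 120 than at 60 min without overlap of libraries for 80 of 121 members (66.1%), against 65.0% of all genes, and longer for 4 (3.31%), against 5.27%. The median at 60 min was 230 min ± 22.9 for the mitochondrial carriers and 260 min ± 16.4 for the other members, and 247 min ± 7.22 for all genes. It was 376 min for mitochondrial carriers read at least 500 times on average. With libraries averaged within each gene first, the medians were 250 min (mitochondrial), 257 min (other members) and 251 min (all genes), so the classes lay closer. Taken from the fall of unlabelled reads between 15 and 120 min, the median was 115 min for mitochondrial and 158 min for other members, over only the 25 of 29 and 89 of 93 whose unlabelled reads fell. For all genes it was 143 min, over 8163 of 9065. These values lie over 1.5 times lower, and the genes whose unlabelled reads did not fall are not in them. Over all members of each class, the median share of unlabelled reads that remained was 59.8% and 64.4%, against 64.9% for all genes.

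The heptamer TATTTAT, the core of AU-rich elements that many short-lived mRNAs carry in the 3′UTR, was searched on the mRNA strand of the longest annotated 3′UTR of each gene, with overlapping copies counted each. It occurred in 40 of the 122 members (32.8%) and in 32.5% of all genes with a 3′UTR, and in 14 of 29 mitochondrial carriers and 26 of 93 others. Of the 8 members with the highest NTR at 60 min, 3 held it. The first copy in these 3 and in Slc4a7, the sodium-bicarbonate carrier with 8 copies, is shown with the heptamer in capitals. Slc25a25 held 3 copies, Slc38a2 held 2 and Slc30a1 held 1. The stretch of Slc25a25 ends in a further copy, left in lower case. Locations are on GRCm38 from GENCODE M21, in the 3′UTR: chr2:32415109-32415137 on the minus strand for Slc25a25, chr15:96687931-96687959 on the minus strand for Slc38a2, chr1:191911739-191911767 on the plus strand for Slc30a1 and chr14:14797038-14797066 on the plus strand for Slc4a7.
Slc25a25: tgcttggagccTATTTATtttgtatttat
Slc38a2: aactgtactgtTATTTATagagcagcatt
Slc30a1: ttttagagaatTATTTATttctttacaat
Slc4a7: tgtattctttcTATTTATatacagtgtat
The median NTR at 60 min of genes with and without it was 14.1% and 18.7% for mitochondrial carriers, 17.3% and 14.1% for the other members, and 19.3% and 13.7% for all genes. A match is a string of letters and not a shown site.

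Total reads of 25 members differed between 120 and 15 min by edgeR's quasi-likelihood test over all 12 libraries, at an adjusted p below 0.05, 11 higher and 14 lower. This was 20.5% of the members, against 19.3% of all 11564 genes tested (7.93% higher, 11.3% lower). The largest fall was -0.74 and the largest rise 0.48 on the log2 scale. With library size alone in place of TMM scaling there were 26, with 4 higher and 22 lower, against 19.8% of all genes. That scaling ended the calls of 7 of the 11 rises, Slc5a3, Slc6a6, Slc25a1, Slc25a11, Slc38a4, Slc38a10 and Slc39a7, and the rises of Slc1a3, Slc25a4, Slc25a5 and Slc48a1 kept theirs. DESeq2 kept 18 of the 25 and ended the calls of Slc1a4, Slc5a3, Slc25a11, Slc25a37, Slc26a2, Slc38a4 and Slc38a10. Leaving out a library gave 6 members without 15 min replicate A (4.92%, against 5.62% of all genes) and 12 without 15 min replicate B (9.84%, against 8.86%). It gave 13 without 120 min replicate A (10.7%, against 8.70%) and 8 without 120 min replicate B (6.56%, against 6.03%). Slc25a32, Slc38a2, Slc30a1, Slc23a2 and Slc3a2 kept their call under each of the 10 alternatives tried, and none of the 25 changed sign. Over these alternatives the log2 fold change of Slc23a2 ran from -0.53 to -0.31, and that of Slc25a32 from -0.80 to -0.72.

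**Figure D2:**
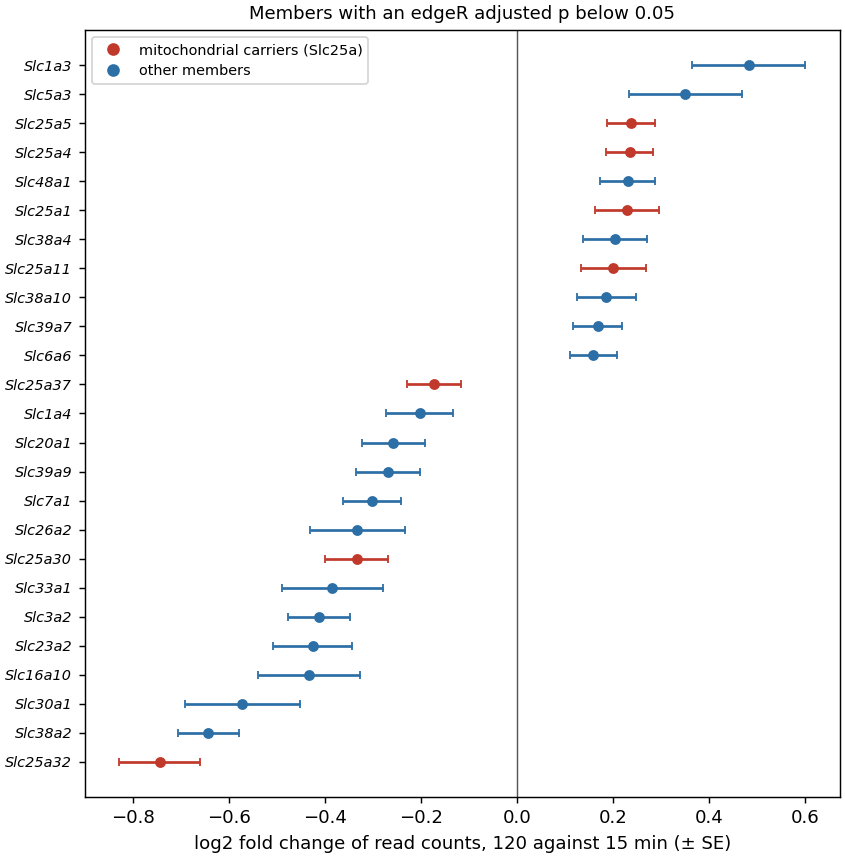
Log2 fold change of read counts, 120 against 15 min, with its SE, for the 25 members with an edgeR adjusted p below 0.05, mitochondrial carriers in red and other members in blue. The 14 falls reach -0.74 (Slc25a32) and the 11 rises reach 0.48 (Slc1a3).

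Of the 29 mitochondrial carriers 7 passed (24.1%, against 19.3% of all genes). The 3 that fell were Slc25a32, Slc25a30 and Slc25a37. Slc25a32 had 43.8 and 42.4 CPM at 15 min and 25.7 and 25.8 CPM at 120 min, a log2 fold change of -0.74 ± 0.08 (SE, adjusted p = 1.82e-05). Its 90 min libraries had 34.7 and 31.4 CPM and lay between, without overlap. Slc25a30, a carrier of the inner membrane, fell from 106 and 95.6 CPM to 79.1 and 81.2 CPM (-0.33 ± 0.07, adjusted p = 0.00187). Slc25a37 fell by 0.17 on the log2 scale (adjusted p = 0.0365). The call of Slc25a30 was lost without 15 min replicate A, and that of Slc25a37 without any 1 of the 4 libraries.

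The 4 mitochondrial carriers that rose were Slc25a5, Slc25a4, Slc25a1 and Slc25a11, the oxoglutarate carrier. Slc25a5 had 697 and 713 CPM at 15 min and 833 and 830 CPM at 120 min (0.24 ± 0.05, adjusted p = 0.00294). Slc25a4 had 565 and 577 CPM, then 666 and 677 CPM (0.24 ± 0.05, adjusted p = 0.00266). The calls of both were lost without 15 min replicate A, with adjusted p of 0.0567 and 0.0518. Slc25a1 (0.23 ± 0.07) and Slc25a11 (0.20 ± 0.07) lost theirs without each of the 4 libraries in turn, and Slc25a11 overlaps a gene on the opposite strand. Slc25a3 had a log2 fold change of 0.14 ± 0.05 that did not pass (adjusted p = 0.0730).

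Of the 20 carriers of amino acids and amines, 4 rose and 4 fell, 40% of them against 19.3% of all genes. Slc38a2 read 520 and 609 CPM in no4sU, then 580 and 568 (15 min), 562 and 585 (30 min), 489 and 499 (60 min), 424 and 388 (90 min) and 361 and 374 CPM (120 min). From 60 min on its libraries lay under every earlier one, and the log2 fold change at 120 against 15 min was -0.64 ± 0.06 (adjusted p = 3.43e-06). Slc3a2 fell from 292 and 312 CPM to 227 and 227 CPM (-0.41 ± 0.06, adjusted p = 0.000331), while Slc7a5 had 320 and 315 CPM, then 295 and 273 CPM (-0.16 ± 0.06, adjusted p = 0.0577). Slc7a1, the carrier of arginine and lysine, fell by 0.30 on the log2 scale (adjusted p = 0.00214), and Slc1a4, a carrier of alanine, serine and cysteine, by 0.20 (adjusted p = 0.0478). The glutamate carrier Slc1a3 rose from 40 and 40.7 CPM to 55.1 and 57.5 CPM (0.48 ± 0.12, adjusted p = 0.00794), but its 60 min libraries were 56.9 and 40.8 CPM. Slc38a4, Slc38a10 and Slc6a6, the taurine carrier, rose by 0.16 to 0.20 on that scale. Leaving out 120 min replicate B ended the calls of Slc7a1 and Slc1a3, and leaving out either 15 min library ended that of Slc1a3. The calls of Slc1a4, Slc38a4, Slc38a10 and Slc6a6 ended without any 1 of the 4 libraries. Slc1a5, a glutamine carrier, had 0.09 ± 0.06 (adjusted p = 0.292).

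Among the 20 metal carriers 1 rose and 2 fell, 15% of them against 19.3% of all genes. Slc30a1 had 29 and 31 CPM at 15 min and 20.5 and 20 CPM at 120 min (-0.57 ± 0.12, adjusted p = 0.00278), with 20 and 27.3 CPM at 60 min. Slc39a9, a zinc carrier that overlaps a gene on the opposite strand, fell by 0.27 on the log2 scale, and Slc39a7, which releases zinc from the endoplasmic reticulum, rose by 0.17 (adjusted p = 0.0268), and both calls ended without any 1 of the 4 libraries. Slc39a14, Slc39a1 and the copper carrier Slc31a1 had log2 fold changes of -0.07, 0.09 and -0.06 that did not pass. In the remaining classes the falls were Slc16a10, a carrier of aromatic amino acids and thyroid hormone (-0.43), Slc23a2, a vitamin C carrier (-0.43), Slc33a1, the acetyl-CoA carrier (-0.38), Slc26a2, a sulfate carrier (-0.33), and Slc20a1, a phosphate carrier (-0.26). The rises were Slc5a3, a myo-inositol carrier (0.35), and Slc48a1, a haem carrier (0.23). Slc5a3 shares its locus with Mrps6 on the same strand, and Slc48a1 overlaps a gene on the opposite strand, so their reads may include those of the neighbours. The call of Slc5a3 also ended with library size alone and in DESeq2. The calls of Slc20a1, Slc26a2 and Slc5a3 ended without any 1 of the 4 libraries. Those of Slc33a1, Slc48a1 and Slc16a10 ended without 15 min replicate A and without 120 min replicate B, and that of Slc16a10 also without 120 min replicate A. Of the 15 ion and pH carriers Slc26a2 passed, and Slc12a2 and Slc4a7 had log2 fold changes of -0.07 and -0.32 (adjusted p = 0.0559 for Slc4a7).

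**Figure D3:**
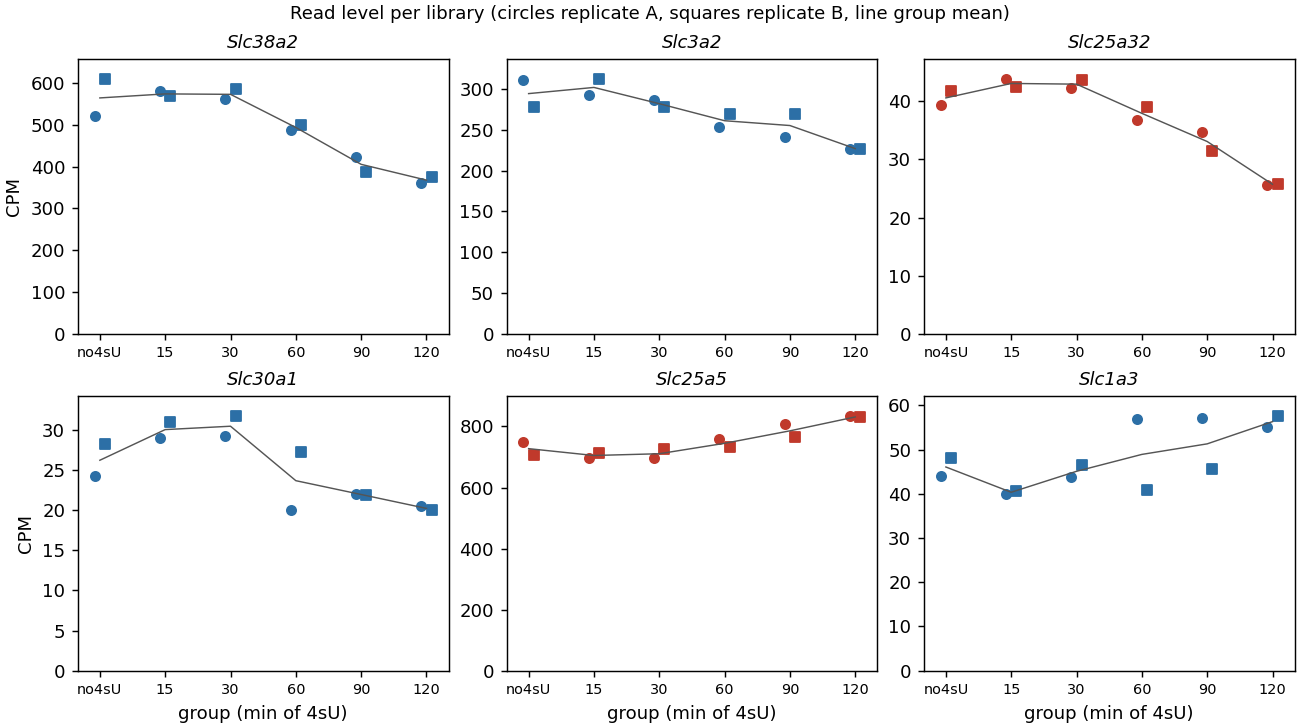
CPM in every library for 6 members, by group (no4sU or min of 4sU), circles replicate A, squares replicate B, lines the group mean, axes from 0. Slc38a2, Slc3a2, Slc25a32 and Slc30a1 are lower at 120 min than at 15 min in both replicates, and Slc25a5 and Slc1a3 are higher.

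Against no4sU, 18 members passed at 120 min, 7 higher and 11 lower, which is 14.8% of the members against 14.2% of all genes (5.43% higher, 8.78% lower). The 120 min libraries also serve the comparison with 15 min, so both sets of values share them. Slc25a32 had a log2 fold change of -0.66 ± 0.08 (adjusted p = 7.69e-05), Slc38a2 -0.62 ± 0.06 (adjusted p = 6.21e-06) and Slc3a2 -0.37 ± 0.06 (adjusted p = 0.000915), and these 3 kept their call under each of 9 alternatives. Slc23a2 had -0.41 ± 0.08 (adjusted p = 0.00289) and kept its call under 7 of the 9. Slc30a1 had -0.38 ± 0.12 (adjusted p = 0.0377) and kept its call under 4 of the 9, not in DESeq2. Slc6a6 was 0.27 ± 0.05 higher (adjusted p = 0.00128), Slc38a4 0.28 ± 0.07, Slc5a3 0.41 ± 0.12 and Slc39a10, a zinc importer, 0.30 ± 0.10 (adjusted p = 0.0431). Without either 120 min library in turn the calls of Slc38a4, Slc5a3 and Slc39a10 ended. Slc39a10 and Slc5a3 also lost their call in DESeq2, with library size alone and without no4sU replicate A, where Slc39a10 had 49.3 CPM against 66.4 in replicate B. These values moved by over 1.5 times with the no4sU library used. The log2 difference was 0.11 without no4sU replicate A and 0.54 without replicate B for Slc39a10, 0.19 and 0.68 for Slc5a3, and 0.18 and 0.40 for Slc38a4. The count of members was 32 without no4sU replicate A (26.2%, against 30.2% of all genes) and 17 without no4sU replicate B (13.9%, against 16.2%). It was 5 without either 120 min library in turn (4.10%), against 3.87% of all genes without replicate A and 3.99% without replicate B. With library size alone it was 20, with 2 higher and 18 lower (16.4%, against 16.3% of all genes).

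At the shorter times few or no members passed. At 90 min Slc38a2 was lower (-0.48 ± 0.06, adjusted p = 0.000483) and Slc6a6 (0.27 ± 0.05) and Slc39a10 (0.41 ± 0.10) were higher, against 1.39% of all genes (0.45% higher, 0.943% lower). Over the alternatives tried the value of Slc39a10 at 90 min ran from 0.22 to 0.65, and its call ended with library size alone. That count was 15 without no4sU replicate A (12.3%, also 12.3% of all genes) and 13 without no4sU replicate B (10.7%, against 10.4%). It was 1 (Slc38a2) without 90 min replicate A and 0 without 90 min replicate B, against 0.154% and 0.0684% of all genes. At 60 min none passed in edgeR or DESeq2, with 7 at an unadjusted p below 0.05 in edgeR and 0.0173% of all genes called (0.00865% higher, 0.00865% lower). At 15 and 30 min none passed in either tool, with 7 and 12 at an unadjusted p below 0.05 and 0% of all genes called. Without no4sU replicate B the counts of members were 16, 14 and 14 at 15, 30 and 60 min (13.1%, 11.5% and 11.5%), against 11.4%, 11.7% and 10.4% of all genes. Without no4sU replicate A they were 0, 1 and 3, against 0.461%, 0.290% and 1.84% of all genes.

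Members with a higher NTR at 60 min tended to have lower counts at 120 than at 15 min. Ranked by NTR and cut into 4 groups, the lowest (3.57% to 10.7%, 30 genes) had 6 that rose and none that fell, and of the highest (21.6% to 74.6%, 31 genes) none rose and 11 fell. The groups between held 3 and 2 rises and 0 and 3 falls. The Spearman rho over the 122 members was -0.63, and over all 9065 genes -0.73. The relation is thus not particular to the members, and shares of all genes in matching NTR groups are not given. Each rho is a description over genes that share libraries. The NTR came from the 60 min libraries and the fold change from those of 15 and 120 min. Slc25a25, with the highest NTR, had a log2 fold change of -0.11 ± 0.10 (adjusted p = 0.446) and Slc29a2 of -0.02 ± 0.11, while Slc25a32 with an NTR of 34.1% had the largest fall. Gene length moved with the fold change too, with a rho of -0.37 over members and -0.38 over all 9065 genes, and its part was not tested. That rho was -0.59 over the mitochondrial carriers and -0.30 over the other members.

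**Figure D4:**
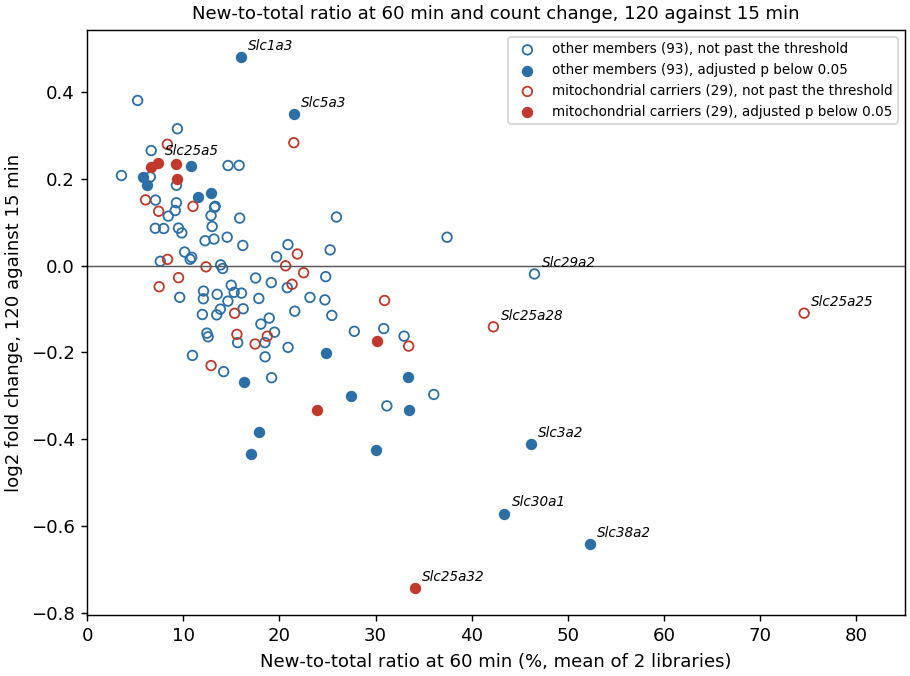
Log2 fold change of counts, 120 against 15 min, against the NTR at 60 min (%, mean of 2 libraries) for 122 members, mitochondrial carriers in red, filled where the adjusted p is below 0.05. Filled points above 0 lie at 21.5% or less, and Slc25a25 at 74.6% lies near 0.

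Splitting each library's CPM by the NTR separated old from new reads. Unlabelled reads of Slc38a2 at 120 min were 6.07% of those at 15 min, those of Slc30a1 8.44% and those of Slc3a2 12.4%. For Slc25a28 and Slc25a32 the shares were 15.9% and 16.4%. Slc25a5, Slc25a4, Slc25a1 and Slc38a4 kept 103%, 101%, 103% and 100% of their unlabelled CPM, so their rise was in labelled reads. Labelled reads of Slc25a5 were 7.61 CPM at 15 min and 114 CPM at 120 min. Unlabelled reads of Slc25a25 were 22.2 CPM at 15 min and listed at 0 at 120 min, and its labelled reads reached 21.9 CPM ± 0.673, so its total stayed near the 15 min value. CPM is relative to the library, so a share above 100% does not mean that old molecules were made.

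**Figure D5:**
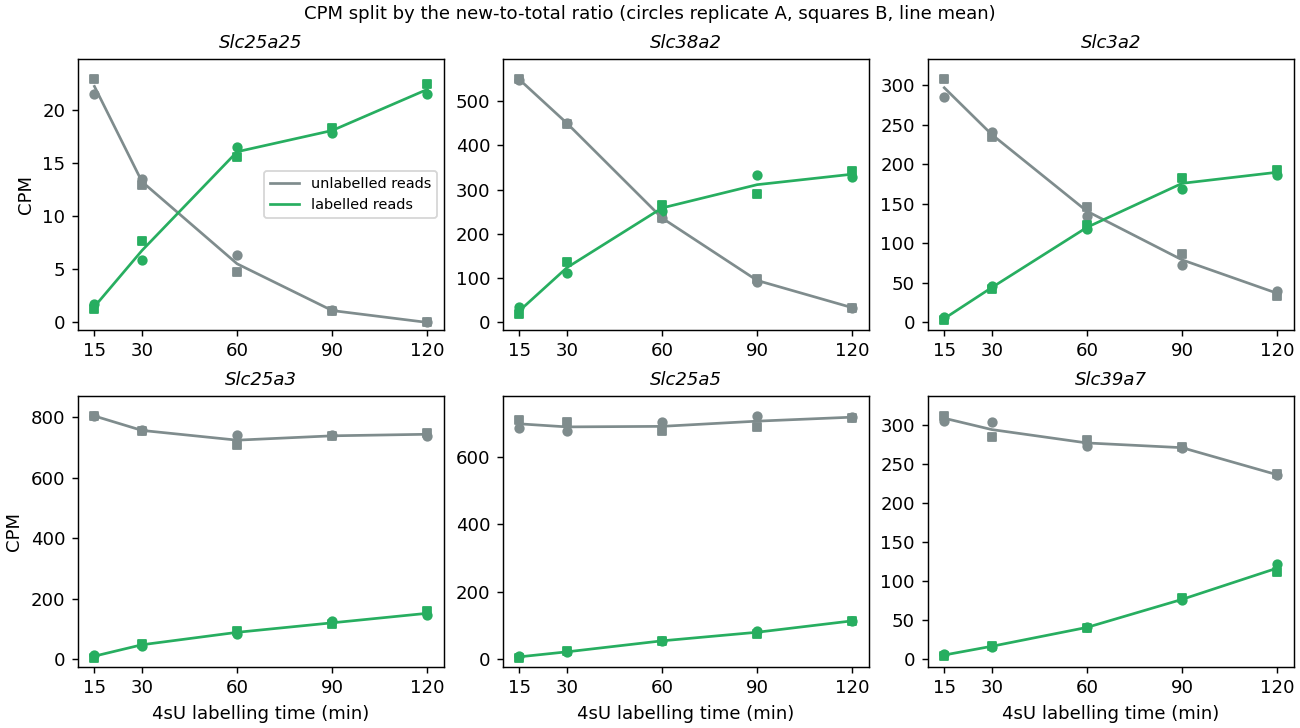
Labelled (green) and unlabelled (grey) CPM against labelling time (min) for 6 members, circles replicate A, squares replicate B, lines the mean of 2 libraries. The unlabelled reads of Slc25a25, Slc38a2 and Slc3a2 fall to 0 to 12.4% of the 15 min value, and those of Slc25a5 stay at 103%.

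Other transport genes, listed apart, had 37 of 43 tested. By the same edgeR test 6 were higher (16.2%, against 7.93% of all genes) and 3 lower (8.11%, against 11.3%) at 120 against 15 min. Their values without 1 of the libraries were not computed. The lists were Slc35b to Slc35g, mitochondrial import, partners of the monocarboxylate carriers, carriers with other symbols and ion pumps.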

How the data were processed

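The authors deposited a table with estimated counts per gene and library, unscaled, of which 20.4% were not whole (tolerance 1e-06), and with the NTR as a fraction for each labelled library, as posterior maximum, mean and 0.05 and 0.95 quantiles (90% interval) per the file headers. The deposited alpha and beta, each a score without fixed range, were not used. The submitters' processing notes name cutadapt, Bowtie2 2.3.0 and STAR 2.7.10b. Genome build, annotation, counter and use of strand were not given in the sources used here. Table columns were matched to samples by label.

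Counts were rounded, filtered with filterByExpr (11564 genes, all 122 members) and fitted with edgeR 4.0.16 (R 4.3.3, quasi-likelihood, TMM, all 12 libraries, no covariate). P-values were Benjamini-Hochberg adjusted over all genes, called below 0.05. DESeq2 1.42.0, the other alternatives and left-out libraries are in the closing section. The procedure was tested on simulated data. CPM used TMM library sizes, and levels per length divided them by the deposited gene length. Half-lives were ln 2 times labelling time over -ln(1-NTR), for NTR between 0.01 and 0.99, assuming constant levels. Unlabelled CPM was CPM times 1-NTR. Gene locations and 3′UTRs came from GENCODE M21 by Ensembl ID, for all 122 members.

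Named genes were the 10 largest falls and rises at 120 against 15 min, 5 each against no4sU, the 8 highest and 8 lowest NTR at 60 min, and a list of 29 carriers, 27 of them members. Others were named after their values were seen, and some listed genes are not reported here. The members and lists were chosen with earlier results of these data known. A read with many conversions may fail to align, which would lower counts and NTR, and this was not tested. With 2 libraries a group, the smallest two-sided exact permutation p is 0.333, so groups were compared only in the model over all genes. Intervals and SDs describe these libraries, at depths of 9917026 to 13739380 reads. Python 3.11.15 was used for the other steps.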

Additional observations from a re-analysis of the deposited data

How the results depend on the processing

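Counts of members called moved by over 1.5 times with the libraries used. At 120 against 15 min the 25 became 45 with only the groups compared (21 higher, 24 lower; 33.6% of all genes called), 43 in a fit of the labelled libraries, chosen after seeing the data (21 higher, 22 lower; 32.1% of all genes called), and 6 to 13 with a library left out (5.62% to 8.86% of all genes). At 120 min against no4sU the 18 became 3 with only the groups compared (171 of all 11436 genes) and 5 to 32 with a library left out. At 90 min the 3 became 5 without the filter on low counts, 0 with only the groups compared and 0 to 15 with a library left out, and at 60 min the 0 became 2 without the filter and 0 to 14. At 15 and 30 min the ranges were 0 to 16 and 0 to 14. DESeq2 called 18, 12 and 3 members at 120 against 15 min, 120 and 90 min against no4sU. Of all genes it called 12.6%, 9.16% and 1.26%. The replicate block gave 28, 20 and 3, against 20.0%, 15.0% and 1.58% of all genes. Without the filter on low counts, 2.56% of all genes were called at 90 min and 0.556% at 60 min against no4sU. Replicate letters were not taken as pairs, since the differences of A and B correlated between groups at -0.13 to 0.15, over 0.1 in 3 of 15 pairs of groups. The difference of median NTR between classes reversed with a mean count of at least 500, to 0.755, 3.50 and 14.3 points at 30, 60 and 120 min. The median half-life moved to 376 min (mitochondrial) and 276 min (other) with that minimum, and to 115 and 158 min from unlabelled reads, over the 25 of 29 and 89 of 93 members whose unlabelled reads fell. The causes were not tested. Slc25a25 and members near the count minimum have few reads, and their NTR has wide intervals.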

Other observations

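Among the other transport genes tested, those that rose at 120 against 15 min included Slc35b2, Vdac1, Bsg, Emb and Atp1b1, chosen for naming after their values were seen. Emb, a partner of monocarboxylate carriers, rose by 0.44 on the log2 scale (edgeR adjusted p = 0.00340). Those that fell were Slc35f5 (-0.43, adjusted p = 0.00179), Slc35d1 (-0.34, adjusted p = 0.00543) and Slc35b3 (-0.38, adjusted p = 0.0474). These values were not computed without 1 of the libraries.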
